A study of Mus musculus with 1078 samples.

Results

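Cluster 3 endothelium comprised the cells that the authors annotated as endothelial and placed in number 3 of their expression clusters, and losartan-treated tumors are compared here with anti-PD1-treated tumors within it. Of the 1078 cells of the series, 120 were in cluster 3, and the comparison took 29 of these from losartan-treated and 83 from anti-PD1-treated tumors. Single cells were taken from GL261 gliomas growing in the brains of male and female C57Bl/6 mice and profiled by Smart-seq2, in which the whole cDNA of a cell sorted into its own well is amplified and sequenced. The mice were aged 6 to 8 weeks when the experiments began. Losartan, an angiotensin receptor blocker, was given at 60 mg/kg/day for 2 weeks with no anti-PD1. The paper names IgG as the control for anti-PD1 and phosphate-buffered saline as the control for losartan. Anti-PD1, an antibody against the T cell checkpoint receptor PD1, was given at 200 µg per mouse in 3 doses at intervals of 3 d with no losartan. All 29 losartan-treated cells and 78 of the 83 anti-PD1-treated cells came from plates of CD31+ sorted cells, and these 29 and 78 tumor endothelial cells (TECs) are compared throughout. The other 5 anti-PD1-treated cells came from a CD45-negative plate whose values are expected counts, with totals of 324326 to 845244 and 3703 to 5591 genes, and were left out of the comparison.

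No animal was named for any cell and there was 1 CD31+ plate per treatment. Each treatment is therefore 1 sample, no test was run and a treatment effect cannot be told apart from a plate effect. Values are transcripts per 100000 (TP100K), which is the deposited TPM of a cell scaled to a sum of 100000. Ratios are log2 of the mean of the losartan-treated cells over the mean of the anti-PD1-treated cells, after adding 1 TP100K to each mean, which understates differences of low genes. Shares of cells with a value above 0 carry exact (Clopper-Pearson) 95% intervals, which cover counting error over cells only, and where no cell had a value above 0 the share allowed is given as 3 cells of the number examined.

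Brain endothelium forms the blood-brain barrier through tight junctions, solute carriers and efflux pumps. Along the vascular tree, endothelial cells grade from arterial through capillary to venous identity, with Notch signaling on the arterial side and leukocyte entry mostly at venules. In inflamed tissue, endothelial cells answer interferon with MHC class I presentation genes and chemokines, while glucocorticoid hormones induce a separate set of genes through the glucocorticoid receptor.

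All 12 endothelial markers, among them Pecam1, Cldn5, Tie1 and Ly6c1, were each detected in 25% or more of these cells, and their summed level had a median of 3840 TP100K in losartan-treated and 3348 TP100K in anti-PD1-treated TECs. Of 13 pericyte markers, 9 were at 0 in every cell, Pdgfrb and Acta2 among them, and the list was above 0 in 3 of 29 losartan-treated and 13 of 78 anti-PD1-treated TECs. Of 11 microglia and macrophage markers, 7 were at 0 in every cell, C1qa, P2ry12 and Tyrobp among them. Their sum was above 0 in 3 of 29 losartan-treated TECs, with a mean of 0.0800 TP100K, and in 10 of 78 anti-PD1-treated TECs, with a mean of 5.75 TP100K. T cell markers, with Cd3e and Cd4 at 0 in every cell, summed to at most 1.52 TP100K in losartan-treated TECs (4 of 29 above 0) and 2.16 TP100K in anti-PD1-treated TECs (21 of 78). Platelet markers reached 0.137 TP100K in losartan-treated TECs (1 of 29 above 0) and 470.1 TP100K in anti-PD1-treated TECs (12 of 78), and erythrocyte markers 241.5 TP100K (3 of 29) and 102.5 TP100K (6 of 78). The 10 glioma markers summed to a median of 25.9 TP100K (highest 99.8) in losartan-treated and 10.9 TP100K (highest 220.5) in anti-PD1-treated TECs. The 8 astrocyte markers summed to medians of 0.711 TP100K in losartan-treated and 0 in anti-PD1-treated TECs, with highest cells of 92.5 TP100K in losartan-treated and 154.1 TP100K in anti-PD1-treated TECs. The part of these sums in the results below was not tested.

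Cluster 3 held a different share of the endothelium in each treatment. On the CD31+ plates it held 29 of 57 losartan-treated endothelial cells, with 24 in cluster 7 and 4 in cluster 12, and 78 of 79 anti-PD1-treated endothelial cells, with the other 1 in cluster 7. The authors drew the clusters on the expression of these same cells, so the 29 losartan-treated TECs were already separated from 28 others by expression. Values over all 57 and 79 cells are given beside the main results below.

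Losartan-treated TECs had fewer genes detected and lay further toward the arterial side. Genes detected per cell ranged from 1274 to 5540 with a median of 2151 in losartan-treated TECs, and from 1245 to 6961 with a median of 2999 in anti-PD1-treated TECs. The ranges overlapped almost wholly, yet 24 of 29 losartan-treated TECs lay below the anti-PD1 median. TPM keeps no read depth, so genes detected stands in for it. Arterial-to-venous position was the mean ln(TP100K + 1) of 26 arterial genes minus that of 20 venous genes. It ranged from −2.001 to 2.84 with a median of 0.883 in losartan-treated TECs, and from −2.04 to 2.78 with a median of 0.181 in anti-PD1-treated TECs. Of the losartan-treated TECs, 21 of 29 lay above the anti-PD1 median.

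Split into 3 equal-sized bands of position over all cells compared, the arterial-side band held 15 losartan-treated TECs (51.7%, interval 32.5 to 70.6%) and 21 anti-PD1-treated TECs (26.9%, interval 17.5 to 38.2%). The venous-side band held 6 losartan-treated TECs (20.7%) and 30 anti-PD1-treated TECs (38.5%). By genes detected, the band with the most genes held only 4 losartan-treated TECs and 31 anti-PD1-treated TECs. Position and genes detected were nearly unrelated across cells, with Spearman coefficients of 0.002 over the 29 losartan-treated and −0.105 over the 78 anti-PD1-treated TECs, each from 1 plate. The 28 losartan-treated endothelial cells outside cluster 3 had a median of 3733 genes and a median position of −1.11. Over all endothelium of the plates, the median of genes detected was 4.24% higher in losartan-treated than in anti-PD1-treated cells and the position differed by −0.250, against 28.3% lower and 0.702 within cluster 3, so both differences are turned round there.

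**Figure D1:**
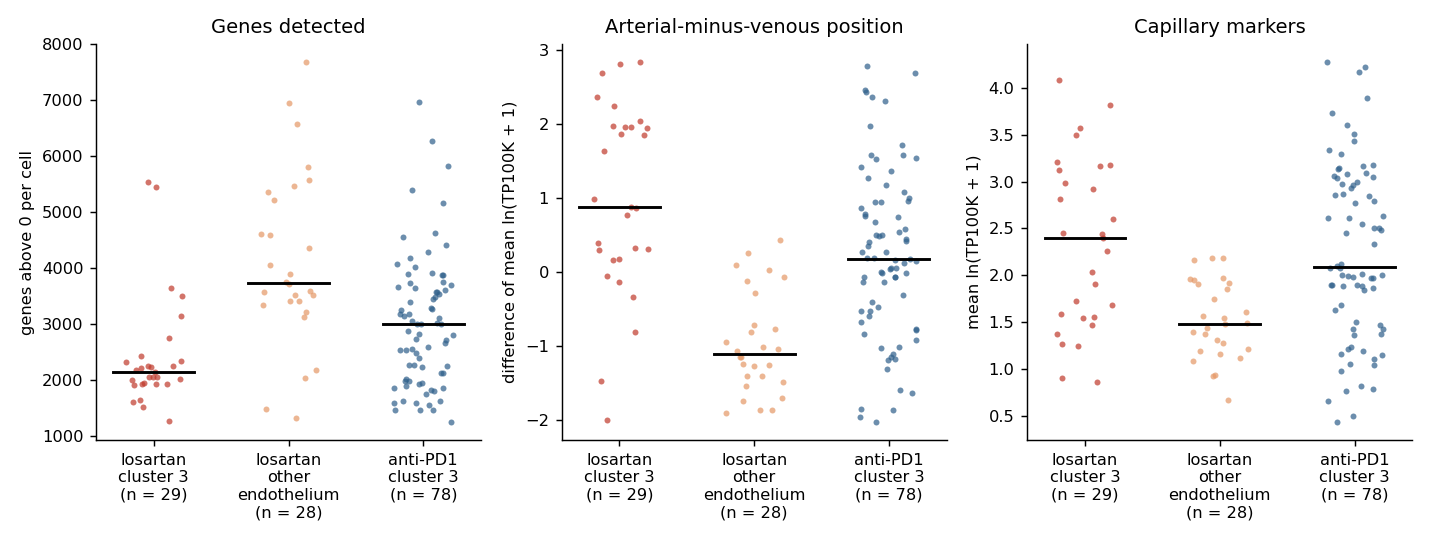
Genes detected (left), arterial-minus-venous position (middle) and mean level of 13 capillary markers (right) in each cell, with the median as a line, for losartan-treated cluster 3 TECs, the other losartan-treated endothelial cells of the same plate and anti-PD1-treated cluster 3 TECs. Losartan-treated TECs sat at a median of 2151 genes and a position of 0.883, anti-PD1-treated TECs at 2999 genes and 0.181, and the other losartan-treated cells at 3733 genes and −1.11.

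A total of 4871 genes were above 0 in 25% or more of the TECs of 1 treatment or both. Of these, 338 (6.94%) were at least 2-fold higher and 451 (9.26%) at least 2-fold lower in losartan-treated TECs, with a median ratio of −0.02 over all genes. A gene can enter this count through 1 treatment alone. Averaging the ratio over the 3 bands of position, 59.5% of the 338 higher genes and 94.2% of the 451 lower genes stayed at least 2-fold apart in the same direction. Averaging over the 3 bands of genes detected, 65.98% of the higher and 80.9% of the lower genes did. These averages also moved the median over all genes down, to −0.162 over bands of position and −0.095 over bands of genes detected. The retained shares of higher and lower genes are to be read against that shift. In the mean of ln(TP100K + 1), 334 of the 338 higher and 451 of the 451 lower genes kept their direction. Only 24.6% of the higher and 35.7% of the lower genes stayed at least 2-fold apart in that mean. Scaling each cell by its 75th percentile instead, which was 53.7 TP100K at the median in losartan-treated and 32.9 TP100K in anti-PD1-treated TECs, moved the median over all genes to −0.39. Higher genes then made up 7.93% of the genes at least 2-fold apart, against 42.8% before, so single ratios are to be read against that shift.

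Arterial genes were higher in losartan-treated TECs. Of 19 arterial genes tested, 7 were at least 2-fold higher and none lower, against 6.94% and 9.26% of all genes tested, with a median ratio of 0.66. The largest were Gkn3, a marker of brain arteries (above 0 in 11 of 29 losartan-treated and 18 of 78 anti-PD1-treated TECs, ratio 2.20), and Mgp, an inhibitor of vessel wall calcification (787 TP100K on average in losartan-treated and 225.8 TP100K in anti-PD1-treated TECs, ratio 1.80). Edn1, the vasoconstrictor endothelin 1, averaged 55.4 TP100K in losartan-treated and 18.8 TP100K in anti-PD1-treated TECs, with a ratio of 1.51. The tyrosine kinase gene Bmx was above 0 in 9 of 29 losartan-treated TECs (31.03%, interval 15.3 to 50.8%) and in 14 of 78 anti-PD1-treated TECs (17.9%, interval 10.2 to 28.3%). The position score is made from these arterial and venous genes, so averaging over its bands lowers their differences by construction. So averaged, the arterial median was 0.03, and the ratios of Bmx (−0.27), Alpl (−0.20) and Hey1 (−0.65) changed sign. Over all endothelium of the plates the arterial median was 0.08.

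Venous genes were lower, with all 8 tested below 0 and 4 at least 2-fold lower (9.26% of all genes), with a median of −0.88. These were Tmsb10, an actin-binding peptide (32.4 TP100K in losartan-treated and 105.6 TP100K in anti-PD1-treated TECs), the protease gene Ctsc (ratio −1.39), the glutamine carrier Slc38a5 (−1.21) and the ephrin receptor Ephb4 (−1.02). The venous median was −0.27 over all endothelium, where Tmsb10 (0.81) and Slc38a5 (0.33) changed sign, as Slc38a5 did averaged over the bands of position (0.06). All 8 Notch pathway genes tested had ratios above 0 (median 0.72), with Notch4, an endothelial receptor, at 1.15 and its target Hey1 at 1.04. The Notch median was 0.13 averaged over the bands of position and −0.001 among cells with 2000 to 4000 genes. Of the 12 capillary genes tested, 2 were at least 2-fold higher (Sgms1 and Slc9a3r2) and none lower, beside 6.94% higher and 9.26% lower over all genes. The capillary median was −0.09.

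Genes that answer glucocorticoids were higher in losartan-treated TECs. Of 12 tested, 6 were at least 2-fold higher (6.94% of all genes) and none lower (9.26%), and all 12 had ratios above 0 (median 1.01). Sult1a1, a phenol sulfotransferase (chr7:126672865-126676432, GRCm38), ranged from 0 to 201.1 TP100K with a median of 35.03 in losartan-treated TECs, and from 0 to 140 TP100K with a median of 0 in anti-PD1-treated TECs. It was above 0 in 19 of 29 losartan-treated TECs (65.5%, interval 45.7 to 82.1%) and in 14 of 78 anti-PD1-treated TECs (17.9%, interval 10.2 to 28.3%), with a ratio of 2.58. The ranges overlapped, and the share of cells with the gene was higher in losartan-treated TECs. Tsc22d3, which encodes the glucocorticoid-induced leucine zipper GILZ (chrX:140539528-140600659), ranged from 0 to 406 TP100K with a median of 89.6 in losartan-treated TECs, and from 0 to 165.8 TP100K with a median of 9.15 in anti-PD1-treated TECs (ratio 1.72). Sgk1, a serum- and glucocorticoid-regulated kinase, averaged 47.3 TP100K in losartan-treated and 15.9 TP100K in anti-PD1-treated TECs. Angptl4 (ratio 2.49), which inhibits lipoprotein lipase, the clock gene Per1 (1.17) and the mTORC1 inhibitor gene Ddit4 (1.13) were the others. Fkbp5, a common glucocorticoid reporter, was above 0 in 2 of 29 losartan-treated and 3 of 78 anti-PD1-treated TECs and was not tested.

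The glucocorticoid list median was positive in every band, between 0.60 and 1.26 by position and between 0.70 and 1.41 by genes detected, and it was 0.75 over all endothelium of the plates. Per cell, the list's mean ln(TP100K + 1) had a median of 1.63 in losartan-treated and 1.09 in anti-PD1-treated TECs, and 25 of 29 losartan-treated TECs lay above the anti-PD1 median. The losartan-treated endothelial cells outside cluster 3 had a median of 1.12, close to that of the anti-PD1-treated TECs. The 5 circadian genes tested had a median of 1.04, with 3 at least 2-fold higher (6.94% of all genes). These were Bhlhe40 (1.29), Per1 and Nr1d1 (1.04). Per1 belongs to both lists, and Nr1d1 changed sign (−0.12) in the mean of ln(TP100K + 1). The circadian median was 0.33 over all endothelium and 0.44 among cells with 2000 to 4000 genes. Fam107a, an actin-associated gene induced by stress and glucocorticoids, was outside the list and had the second highest of the ratios named by rank (3.19). It was above 0 in 13 of 29 losartan-treated TECs (44.8%, interval 26.5 to 64.3%), up to 58.2 TP100K, and in 6 of 78 anti-PD1-treated TECs (7.69%, interval 2.88 to 15.99%), up to 17.1 TP100K. None of the 28 losartan-treated endothelial cells outside cluster 3 had it above 0.

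The 250 bases upstream of the RefSeq starts (GRCm38.p6, 5′ to 3′ on the gene's strand) were searched on both strands for the palindromic glucocorticoid response element. This is GNACA and its reverse complement TGTNC with NNN between them. A gene counted when any of its promoters held the element, which was so for 0.44% of 27025 genes. Of 16 listed glucocorticoid genes with a promoter in the table, 1 held it (6.25%), Sgk1, at 1 of its 6 promoters, and Fam107a held it at 2 of its 3. The metallothionein gene Mt1, which was lower in losartan-treated TECs, also held it. These windows are shown because they place the element beside the genes just described, with the match in capitals.
Sgk1 (chr10:21993640-21993889, plus strand): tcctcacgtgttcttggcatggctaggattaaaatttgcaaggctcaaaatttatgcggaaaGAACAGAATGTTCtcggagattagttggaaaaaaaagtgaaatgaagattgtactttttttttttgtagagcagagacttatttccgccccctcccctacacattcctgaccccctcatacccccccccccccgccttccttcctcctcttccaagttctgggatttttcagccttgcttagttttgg
Fam107a (chr14:8309780-8310029, minus strand): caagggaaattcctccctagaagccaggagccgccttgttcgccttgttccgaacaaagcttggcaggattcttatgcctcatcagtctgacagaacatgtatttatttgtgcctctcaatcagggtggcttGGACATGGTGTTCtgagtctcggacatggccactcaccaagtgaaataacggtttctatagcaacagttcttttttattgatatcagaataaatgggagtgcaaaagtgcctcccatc
A match is only a description of these letters, and binding was not measured.

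MHC class I presentation genes were lower in losartan-treated TECs. Of 20 tested, 9 were at least 2-fold lower (9.26% of all genes) and none higher (6.94%), with a median of −0.63. B2m, the light chain of every class I molecule, ranged from 74.9 to 1501 TP100K with a median of 516 in losartan-treated TECs, and from 499 to 2612 TP100K with a median of 1334 in anti-PD1-treated TECs (ratio −1.21). The classical heavy chain H2-K1 averaged 167.3 TP100K in losartan-treated and 383 TP100K in anti-PD1-treated TECs (ratio −1.19), and H2-D1 242.5 and 405 TP100K (−0.74). B2m was thus present in every cell of either treatment, and B2m and both heavy chains had lower means in losartan-treated TECs. The immunoproteasome subunit Psmb8 (chr17:34197721-34201454) was above 0 in 9 of 29 losartan-treated TECs (31.03%, interval 15.3 to 50.8%) and in 64 of 78 anti-PD1-treated TECs (82.1%, interval 71.7 to 89.8%), with means of 20.8 and 72.95 TP100K. The peptide transporter Tap1 had a ratio of −1.57 and the class I transactivator Nlrc5 −1.61.

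The nonclassical H2-Q genes had the lowest ratios of the list. H2-Q7 (chr17:35439155-35443773) was above 0 in 6 of 29 losartan-treated TECs (20.7%, interval 7.99 to 39.7%) and in 62 of 78 anti-PD1-treated TECs (79.5%, interval 68.8 to 87.8%), with means of 8.63 and 59.8 TP100K. The H2-Q genes are near-identical copies between which reads could be split, so the 9 of them were also summed. The sum ranged from 0 to 101.1 TP100K with a median of 0.537 in losartan-treated TECs, and from 0 to 517 TP100K with a median of 195.8 in anti-PD1-treated TECs (ratio −3.05). It was above 0 in 15 of 29 losartan-treated and 77 of 78 anti-PD1-treated TECs. All 28 losartan-treated endothelial cells outside cluster 3 had it above 0, with a median of 213.3 TP100K. Within the endothelium of that plate, the low level was thus found in the cluster 3 cells and not in the others. Accordingly, H2-Q7 had a ratio of −0.24 and the class I list a median of −0.37 over all endothelium. Malignant cells of the CD31+ plates also had a lower H2-Q sum in losartan-treated tumors (ratio −4.15). Their medians were 2.72 TP100K over 25 losartan-treated and 51.5 TP100K over 8 anti-PD1-treated cells. In T cells of the CD3+ plates the ratio of the sum was 0.04.

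Interferon-induced genes were lower in losartan-treated TECs of cluster 3. Of 38 tested, 12 were at least 2-fold lower (9.26% of all genes) and none higher (6.94%), with a median of −0.68. Irgm1, an interferon-inducible GTPase, was above 0 in 5 of 29 losartan-treated TECs, up to 64.1 TP100K, and in 36 of 78 anti-PD1-treated TECs, up to 168.9 TP100K (ratio −1.87). Tgtp2, another such GTPase with a near-identical neighbor Tgtp1, had a ratio of −2.94, and Tgtp1 −1.18. Ifi44 (−1.83), Ifit3 (−1.49), Gbp2 (−1.46) and Zbp1 (−1.40) also passed 2-fold. Receptor genes lay closer to 0, with Ifnar1 at 0.20, Ifnar2 at 0.06, Ifngr1 at −0.41 and Ifngr2 at 0.58. The interferon median was −0.93 averaged over the bands of position and −0.74 over the bands of genes detected, but −0.36 among cells with 2000 to 4000 genes and −0.20 over all endothelium, where Irgm1 (0.44), Tgtp2 (0.31) and Zbp1 (0.83) changed sign. Averaged over the same bands, all genes tested had medians of −0.162 by position and −0.095 by genes detected.

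Both lists moved with genes detected and with each other from cell to cell. The mean level of the class I list correlated with that of the interferon list (Spearman 0.740 over 29 losartan-treated and 0.672 over 78 anti-PD1-treated TECs) and with genes detected (0.679 and 0.717). These coefficients describe cells that share a plate. Per cell, 26 of 29 losartan-treated TECs lay below the anti-PD1 median for the class I list and 22 of 29 for the interferon list. Within the band of fewest genes, where the medians were 1929 genes over 14 losartan-treated and 1818 genes over 22 anti-PD1-treated TECs, the class I median was −0.74 and the interferon median −1.12. In the middle band the list medians were −0.79 and −0.54, with medians of 2259 genes in losartan-treated and 2727 genes in anti-PD1-treated TECs. In the band of most genes, with 4 losartan-treated TECs, the list medians were −0.80 and −0.40. Genes detected there had medians of 4554 in losartan-treated and 3875 in anti-PD1-treated TECs, so these 2 bands were not matched on genes detected.

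**Figure D2:**
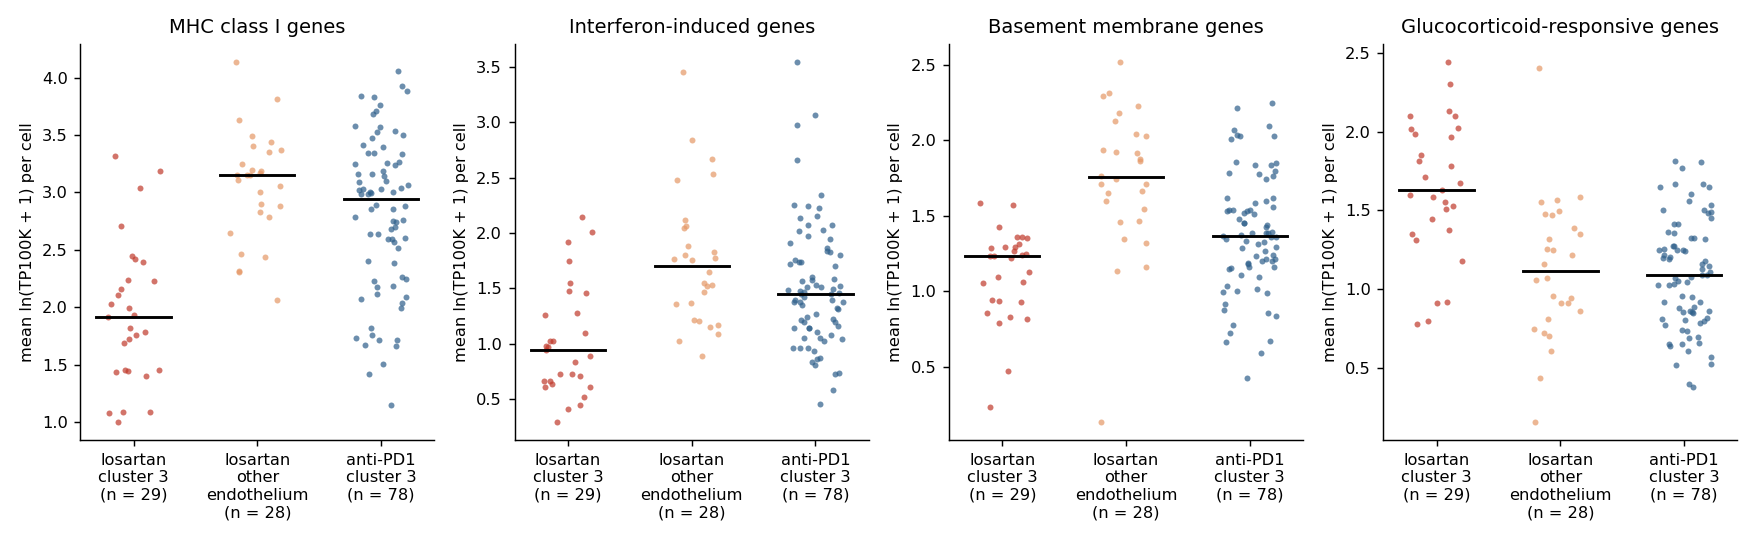
Mean ln(TP100K + 1) per cell over the MHC class I, interferon-induced, basement membrane and glucocorticoid-responsive lists, with medians as lines, for losartan-treated cluster 3 TECs, the other losartan-treated endothelial cells of the plate and anti-PD1-treated cluster 3 TECs. The class I medians were 1.91 in losartan-treated TECs, 3.15 in the other losartan-treated cells and 2.94 in anti-PD1-treated TECs.

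The interferon-stimulated response element is 2 copies of GAAA with NN between them. It was in the 250 bases upstream of 19 of 32 interferon-induced genes with a promoter (59.4%) and of 3 of 18 class I genes (16.7%). Among all genes with a promoter the share was 3.46%. The gamma-activated site TTCNNNGAA was upstream of 10 of the 32 (31.2%) and of 1 of the 18 class I genes (5.56%), against 8.13% of all genes with a promoter. Of the 16 glucocorticoid genes with a promoter, which as a list were higher, 4 held the gamma-activated site (25%). The interferon-stimulated element was upstream of 2 of these 16 (12.5%), so neither element was limited to the lists that were lower. The windows of Irgm1, with 2 overlapping matches, and of B2m are shown as examples from each list, with the matches in capitals.
Irgm1 (chr11:48871421-48871670, minus strand): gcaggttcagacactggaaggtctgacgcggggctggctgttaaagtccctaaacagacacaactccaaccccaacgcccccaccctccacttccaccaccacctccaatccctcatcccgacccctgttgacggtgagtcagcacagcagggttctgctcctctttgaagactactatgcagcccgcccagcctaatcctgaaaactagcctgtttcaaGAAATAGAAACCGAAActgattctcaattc
B2m (chr2:122147437-122147686, plus strand): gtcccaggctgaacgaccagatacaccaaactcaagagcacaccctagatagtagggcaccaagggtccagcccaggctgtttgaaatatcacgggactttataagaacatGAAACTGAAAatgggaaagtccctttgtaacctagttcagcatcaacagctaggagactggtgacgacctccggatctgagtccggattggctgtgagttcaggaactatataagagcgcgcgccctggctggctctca
Both genes were lower in losartan-treated TECs of cluster 3, by the ratios given above.

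The metallothioneins Mt1 and Mt2, small proteins that bind zinc and copper, were lower in losartan-treated TECs. Mt1 (chr8:94179082-94180327) was above 0 in 4 of 29 losartan-treated TECs (13.8%, interval 3.89 to 31.7%), up to 134.4 TP100K, and in 52 of 78 anti-PD1-treated TECs (66.7%, interval 55.1 to 76.9%), up to 703 TP100K with a median of 62.6. Mt2 was above 0 in 3 of 29 losartan-treated TECs (10.3%, interval 2.19 to 27.4%), up to 72.5 TP100K, and in 33 of 78 anti-PD1-treated TECs (42.3%, interval 31.2 to 54.02%), up to 264.4 TP100K. Every anti-PD1-treated TEC with Mt2 also had Mt1, whereas 1 losartan-treated TEC had both, 3 had Mt1 alone and 2 had Mt2 alone. The ratios were −3.38 for Mt1 and −2.55 for Mt2, and −3.62 and −2.59 over all endothelium of the plates. The losartan-treated endothelial cells outside cluster 3 averaged 5.64 TP100K of Mt1, with 6 of 28 above 0, so both sets of losartan-treated cells were low. In T cells of these treatments Mt1 averaged 3.12 TP100K after losartan and 16.5 TP100K after anti-PD1, and in malignant cells 189.1 and 220.3 TP100K. Slc30a1, a zinc exporter that the same metal sensor induces, had a ratio of 0.59. The paper equates Mt1 and Mt2 with the matrix metalloproteinases Mmp14 and Mmp15, which are separate genes in the deposited data. It reports Mt1 and Mt2 among genes lower in TECs after losartan with anti-PD1 than after anti-PD1 alone, which is another contrast. Mmp14 was above 0 in 2 of 29 losartan-treated and 8 of 78 anti-PD1-treated TECs. Mmp15 was above 0 in 0 of 29 losartan-treated TECs, which allows a share of up to 10.3%, and in 17 of 78 anti-PD1-treated TECs (21.8%), with a mean of 0.940 TP100K. Neither was above 0 in enough cells to be tested.

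The metal response element TGCGCNC or TGCACNC was in the 250 bases upstream of 3 of 5 genes of the metallothionein list with a promoter (60%). They were Mt1, Mt2 and the zinc exporter Slc30a1, which was not lower in losartan-treated TECs. Among all genes with a promoter the share was 23.8%. Both metallothionein windows are shown because these genes had a low level in either set of losartan-treated endothelial cells. Mt2 held 3 matches and Mt1 held 1, in capitals, while the glucocorticoid element of Mt1 is left in lower case.
Mt2 (chr8:94172368-94172617, plus strand): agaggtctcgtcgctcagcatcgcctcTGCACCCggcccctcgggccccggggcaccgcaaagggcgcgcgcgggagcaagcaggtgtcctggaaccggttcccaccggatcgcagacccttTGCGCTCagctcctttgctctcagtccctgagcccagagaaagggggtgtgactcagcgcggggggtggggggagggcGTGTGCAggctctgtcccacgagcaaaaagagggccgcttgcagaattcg
Mt1 (chr8:94178839-94179088, plus strand): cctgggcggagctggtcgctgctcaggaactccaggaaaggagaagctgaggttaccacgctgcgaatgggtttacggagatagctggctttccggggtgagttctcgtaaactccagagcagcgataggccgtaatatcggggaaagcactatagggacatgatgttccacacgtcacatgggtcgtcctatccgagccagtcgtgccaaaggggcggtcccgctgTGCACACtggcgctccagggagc
The element is short and common, and its presence does not show use.

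**Figure D3:**
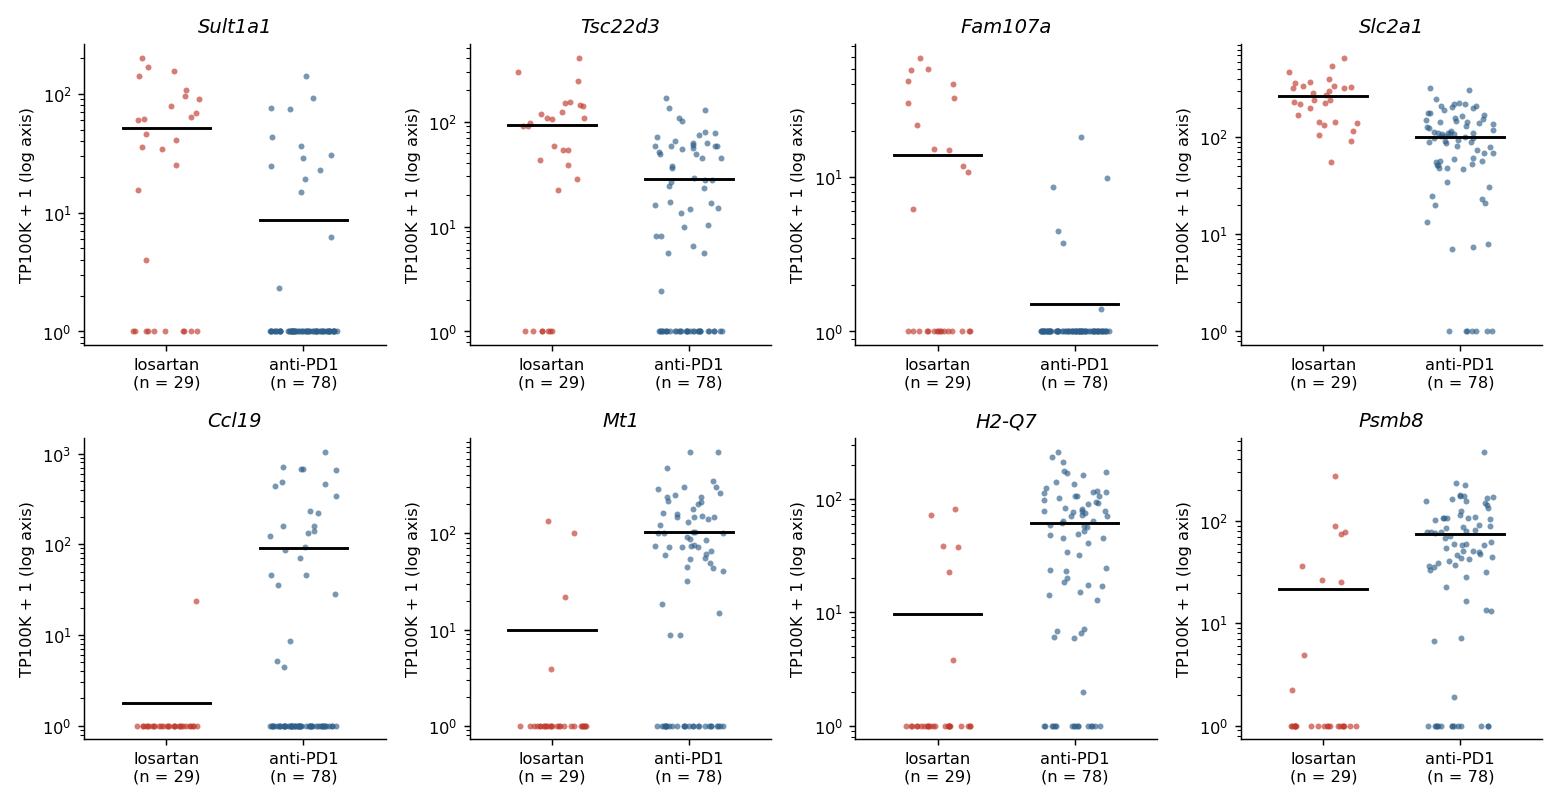
TP100K + 1 on a log axis in each losartan-treated (n = 29) and anti-PD1-treated (n = 78) cluster 3 TEC for 4 genes higher and 4 genes lower in losartan-treated TECs, with the mean as a line. Sult1a1 was above 0 in 19 losartan-treated and 14 anti-PD1-treated TECs, and Mt1 in 4 losartan-treated and 52 anti-PD1-treated TECs.

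Basement membrane genes were lower in the losartan-treated TECs of cluster 3 but not over all endothelium. Of 16 tested, 4 were at least 2-fold lower (9.26% of all genes) and none higher (6.94%), with a median of −0.82. Nid1, a linker of laminin and collagen IV networks, was above 0 in 3 of 29 losartan-treated and 27 of 78 anti-PD1-treated TECs (ratio −1.55). Sparc, a matrix glycoprotein, averaged 82.9 TP100K in losartan-treated and 194.9 TP100K in anti-PD1-treated TECs (−1.22), Col18a1 had a ratio of −1.25 and Lama4 −1.09. The collagen IV chains Col4a1 and Col4a2 had ratios of −0.82 each, while the laminin chain Lamb2 had 0.98. Over all endothelium the list median was 0.10, and Nid1 (0.43) and Lama4 (0.38) changed sign. The 12 tumor endothelium and tip cell genes tested had a median of −0.66 in cluster 3, with 1 at least 2-fold higher and 4 lower, and of 0.54 over all endothelium.

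Barrier lists had medians near 0 in cluster 3 and below 0 over all endothelium. The 24 solute carriers tested had a median of 0.13, with 3 at least 2-fold higher and 3 lower, the 7 efflux pumps a median of 0.21 with 1 higher and 2 lower, and the 16 junction genes a median of 0.16 with 2 higher and none lower, beside 6.94% higher and 9.26% lower over all genes. Over all endothelium these medians were −0.42, −0.28 and −0.20, and with scaling by the 75th percentile −0.45, −0.29 and −0.25, beside −0.39 over all genes under that scaling. Slc2a1, the glucose carrier GLUT1 (chr4:119108711-119137983), ranged from 54.8 to 658 TP100K with a median of 242.9 in losartan-treated TECs, and from 0 to 321 TP100K with a median of 96.7 in anti-PD1-treated TECs. It was above 0 in 29 of 29 losartan-treated and 71 of 78 anti-PD1-treated TECs (ratio 1.40, and 0.83 over all endothelium). Malignant cells sorted on the same plates also had a higher Slc2a1 level, with means of 81.4 TP100K over 25 losartan-treated and 2.45 TP100K over 8 anti-PD1-treated cells. The organic anion carrier Slco1a4 (0.75) and the pump Abcg2 (0.86) were higher by less than 2-fold, Slco2b1 was lower (−1.40), and the pump Abcb1a had a ratio of 0.21. Among junction genes, Cldn5 (−0.13), Ocln (0.34) and Tjp1 (−0.08) lay near 0, and Jam2 was higher (1.36).

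VEGF receptors differed in direction. The decoy-like receptor Flt1 averaged 56.9 TP100K in losartan-treated and 32.9 TP100K in anti-PD1-treated TECs (0.77), the signaling receptor Kdr 6.99 and 15.1 TP100K (−1.01), and Flt4 4.66 and 4.59 TP100K (0.02). The coreceptor Nrp2 had a ratio of −1.95 and Nrp1 −0.53. Agtr1a, the receptor that losartan blocks, was above 0 in 0 of 29 losartan-treated TECs, which allows a share of up to 10.3%, and in 0 of 78 anti-PD1-treated TECs, which allows up to 3.85%. Of the 4 renin-angiotensin genes tested, only Agtrap, which binds that receptor, was at least 2-fold lower (−1.23), beside 9.26% of all genes. Ace had a ratio of 0.06. The study names further genes as lower after losartan with anti-PD1 than after anti-PD1 alone, over TECs rather than cluster 3. That contrast differs from the present one, in which losartan was given alone. Among these genes, the alcohol dehydrogenase Adh1 was lower here (2 of 29 losartan-treated and 22 of 78 anti-PD1-treated TECs, −2.90), as was Ildr2 (−1.01). Cnpy2 (−0.27), Igf1r (0.08), Slc35f2 (0.26) and Slc19a3 (0.30) had ratios within 2-fold.

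**Figure D4:**
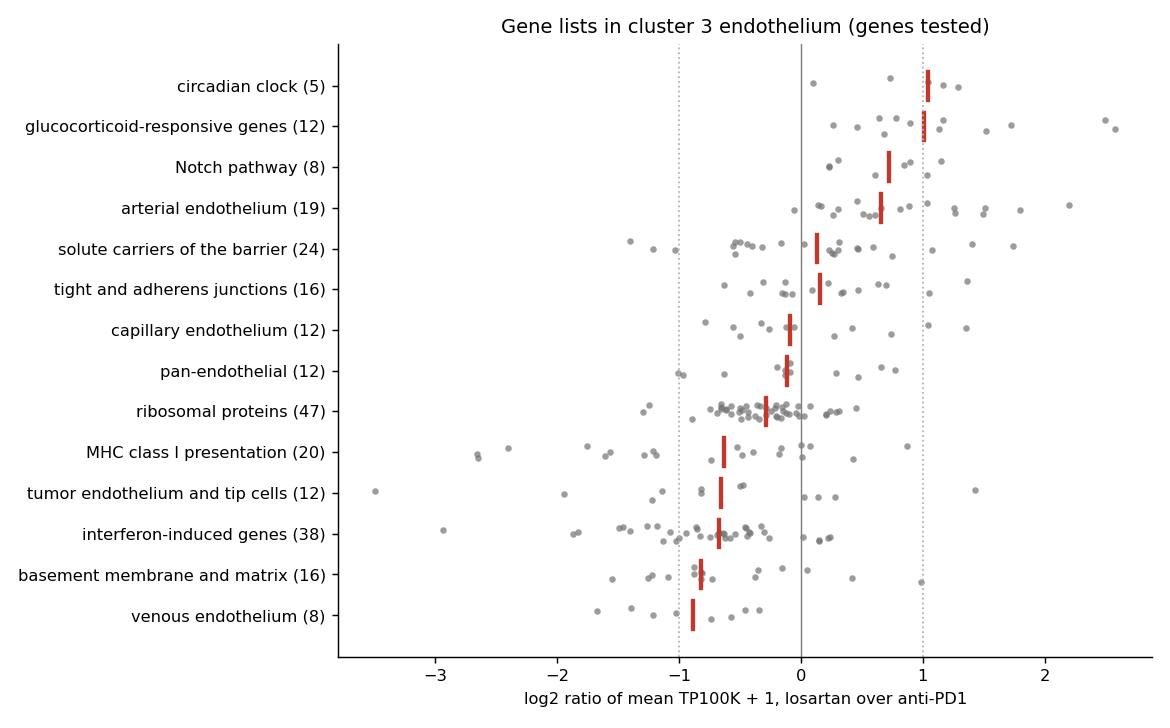
Log2 ratio of losartan-treated over anti-PD1-treated cluster 3 TECs for each tested gene of 14 lists (points, number tested in parentheses), with list medians as thick marks and 2-fold as dotted lines. Medians ran from 1.04 for circadian genes and 1.01 for glucocorticoid-responsive genes to −0.82 for basement membrane and −0.88 for venous genes.

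The 12 highest ratios were led by Lypd1, a membrane-anchored Ly6 family gene (8 of 29 losartan-treated and 2 of 78 anti-PD1-treated TECs, ratio 3.57), Fam107a, Sult1a1, the galactosyltransferase B4galt4 (2.50), Maged2 (2.44), Galnt15 (2.21), Rasd1, a dexamethasone-induced Ras protein (2.06), and Acbd5 (2.01). Lypd1-positive cells had a median position of 2.002 in losartan-treated and 2.18 in anti-PD1-treated TECs, at the arterial end. Fam118b (1.92), the membrane progestin receptor Paqr5 (1.90), Pik3r4 (1.83) and the death receptor Fas (1.82) completed the 12. Paqr5 was above 0 in 27 of 29 losartan-treated TECs, with a median of 37.1 TP100K, and in 53 of 78 anti-PD1-treated TECs, with a median of 6.95 TP100K.

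Among the 12 lowest, Ccl19, a chemokine that attracts T cells and dendritic cells through CCR7, was above 0 in 1 of 29 losartan-treated TECs (3.45%, interval 0.0873 to 17.8%), at 22.9 TP100K, and in 26 of 78 anti-PD1-treated TECs (33.3%, interval 23.1 to 44.9%), up to 1044 TP100K. Its ratio was −5.68, and −1.84 over all endothelium, where 9 of the 28 losartan-treated cells outside cluster 3 had it. The Ccl19-positive anti-PD1-treated TECs had a median position of −0.967, toward the venous side, and the 1 losartan-treated cell lay at −2.001. Pdlim1 and Bcl10 were listed at 0 in all 29 losartan-treated TECs, and were above 0 in 22 and 20 of 78 anti-PD1-treated TECs, so no fold is given. Cd38, an ectoenzyme that consumes NAD, was above 0 in 2 of 29 losartan-treated and 36 of 78 anti-PD1-treated TECs (ratio −3.42), and had a ratio of 0.23 over all endothelium. Apod, a lipid-binding lipocalin, averaged 13.48 TP100K in losartan-treated and 123.3 TP100K in anti-PD1-treated TECs (−3.10, and −2.85 over all endothelium). Rpp21 (−3.62), Trp53i11 (−3.49), Mt1, Ankrd37 (−3.29), Trnau1ap (−3.13), Prcp, a peptidase that inactivates angiotensin II (−3.13), and H2-Q9 (−3.12) were the others.

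**Figure D5:**
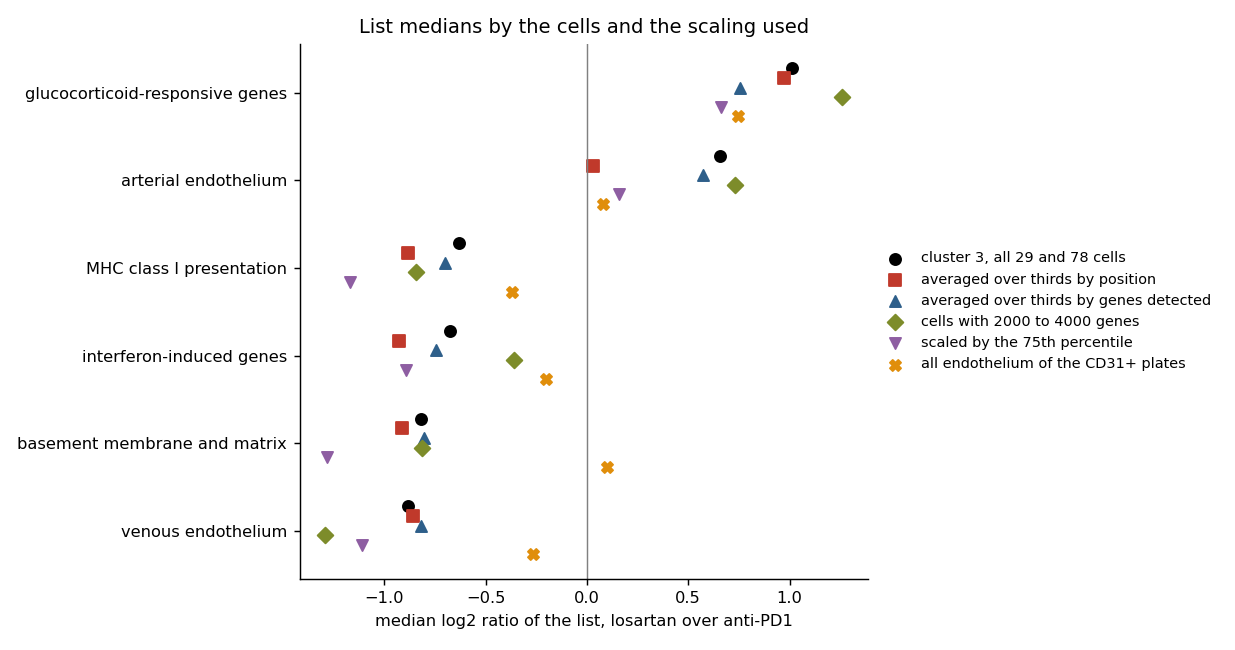
Median log2 ratio of 6 lists, losartan-treated over anti-PD1-treated, under 6 choices of cells or scaling. The glucocorticoid median stayed between 0.66 and 1.26, the arterial median was 0.03 when averaged over bands of position, which are cut on a score that holds these genes, and the basement membrane median was 0.10 over all endothelium of the CD31+ plates.

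The same lists were also read in other cells of these treatments. In T cells of the CD3+ plates (76 losartan-treated and 88 anti-PD1-treated), 4.79% of 3129 genes were at least 2-fold higher and 4.28% lower, and the medians were −0.30 for class I, −0.11 for interferon-induced and 0.16 for glucocorticoid-responsive genes. In malignant cells of the CD31+ plates (25 losartan-treated and 8 anti-PD1-treated), 12.2% of 10727 genes were higher and 19.7% lower, and the medians were 0.22, 0.95 and 0.69 in the same order of lists. Any Y-linked gene was above 0 in 2 of 25 losartan-treated and 8 of 8 anti-PD1-treated malignant cells, and in 16 of 29 losartan-treated and 54 of 78 anti-PD1-treated TECs.

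Few cluster 3 TECs came from the other 2 treatments. In the 5 TECs given losartan with anti-PD1, Mt1 was 0, 0, 0, 0 and 85.4 TP100K and H2-Q7 was 32.3, 62.9, 79.8, 101.2 and 98.4 TP100K. In the 3 control TECs, Mt1 was 0, 0 and 29.4 TP100K and H2-Q7 was 22.8, 2.13 and 98.8 TP100K. Sult1a1 was above 0 in 3 of 5 TECs given both agents (29.1, 39.8 and 76.6 TP100K) and in all 3 control TECs (31.2, 18.5 and 91.8 TP100K). With so few cells these values are a description only.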

How the data were processed

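GL261 tumors were dissociated and single cells were sorted by CD31, CD3 or CD45 onto plates and sequenced by Smart-seq2. For the CD31+ and CD3+ plates the authors deposited TPM, a length-corrected value that sums to 1000000 in each cell, obtained with Bowtie and RSEM (version 1.2.8 in the submitters' processing notes). For the CD45-negative plates the deposited values are RSEM expected counts, with no length correction, and these were used only in an alternative. TPM keeps no read depth, so the depth of each cell is unknown. The authors filtered cells on detected genes and housekeeping genes, annotated cell types and drew clusters with Seurat, and these annotations were taken as given.

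Each cell was scaled to 100000 (TP100K). Genes detected in 25% or more of the TECs of 1 treatment or both were compared by the log2 ratio of means plus 1 TP100K, and a ratio of 1 or more or of −1 or less counted as 2-fold. With 1 sample per treatment no test was run. Genes named are the 12 highest and 12 lowest ratios with the same sign in mean ln(TP100K + 1) and no cell holding over 25% of the summed level, list members beyond 2-fold (up to 6 a list), endothelial markers, genes the study names, and members with a defining role. Of 790 list symbols in 48 lists, 10 were matched by a synonym and 5 were not matched. The cells, lists and alternatives were chosen with earlier results of these data known, and the comparison over all endothelium was added after the values were seen. Alternatives covered the pseudocount, the filter, the scaling, the cells included and bands of position or genes detected. The log2 ratio was checked on known changes put into the anti-PD1-treated TECs, split at random. Gene positions came from GENCODE vM21 (GRCm38) and promoters from RefSeq (GRCm38.p6). The software was Python 3.11.15 with the packages SciPy 1.17.1 for intervals, NumPy 2.4.6 and pandas 2.3.3 for tables, and matplotlib 3.10.9 for plots.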

Additional observations from a re-analysis of the deposited data

How the results depend on the processing

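No paired analysis was possible because no replicate number or animal links cells across treatments, and no replicate could be left out with 1 sample per treatment. Of the genes tested, 6.94% (338) were at least 2-fold higher and 9.26% (451) lower as reported. Lower genes made up 14.9% (726) with a pseudocount of 0.1, 15% (732) averaged over bands of position, 15.5% (756) without the highest cell of each gene and 5.87% with the 50% filter, where 5.81% of 1738 genes were higher. Higher and lower genes made up 0.924% and 1.01% (45 and 49) with a pseudocount of 10, and 1.46% and 16.9% (71 and 824) with scaling by the 75th percentile. Higher genes made up 2.28% in the mean of ln(TP100K + 1). With no filter the shares stayed, at 7.05% and 9.32%, but the counts were 971 and 1284 of 13772 genes, and among cells with 2000 to 4000 genes 677 of 5107 genes were lower (13.3%). Averaged over bands of position, the arterial median was 0.031, with Alpl at −0.20, Bmx −0.27, Hey1 −0.65, Igfbp3 −0.37 and Slc38a5 0.061. Among cells with 2000 to 4000 genes the Notch median was −0.001 and Hey1 was −0.06. Igfbp4 was −0.70 and Nr1d1 −0.12 in the mean of ln(TP100K + 1), and Igfbp4 was −0.09 without its highest cell.

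Over all endothelial cells of the CD31+ plates (57 losartan-treated and 79 anti-PD1-treated), chosen after seeing the data, 3.88% of 5624 genes were higher and 3.75% lower, the median of genes detected was 4.24% above that of anti-PD1-treated cells, and the difference in position was −0.250. The medians were −0.27 for venous, 0.10 for basement membrane and 0.54 for tumor endothelium and tip cell genes. The genes Cd38 (0.23), Cox7b (0.066), Hspe1 (0.29), Irgm1 (0.44), Lama4 (0.38), Nid1 (0.43), Pdlim1 (0.29), Slc38a5 (0.33), Slc7a1 (0.20), Tgtp2 (0.31), Tmsb10 (0.81), Trp53i11 (0.57) and Zbp1 (0.83) changed sign there.

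Of 419 medians of 35 lists under all alternatives, 396 lay within 0.585 (1.5-fold on the log2 scale) of the reported median and 23 further away. Their sign differed in 57, of which 3 belonged to medians that were themselves at least 1.5-fold from 0, as printed above. Of 1308 values of single genes, 991 lay within 0.585, 317 further away and 22 had another sign. Many genes rest on a few positive cells among 29, TPM gives no depth, and an effect of treatment cannot be told apart from one of plate, of tumor or of how losartan-treated endothelium was split between clusters.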

Other observations

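Stress and metabolic genes were also compared in cluster 3 TECs. The median log2 ratio was 0.25 over 14 heat shock genes and 0.20 over 18 hypoxia and glycolysis genes, with Ldha at 0.64. Of these 18, 2 were at least 2-fold higher (6.94% of all genes) and 2 lower (9.26%). The 36 oxidative phosphorylation genes tested had a median of −0.16 and the 47 ribosomal protein genes −0.29, in which 39 of 47 ratios were below 0.

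MHC class II genes were detected in anti-PD1-treated TECs toward the venous side. The venous-side band of position held 6 losartan-treated and 30 anti-PD1-treated TECs, so few losartan-treated TECs of that position were examined. Of 8 listed class II genes, only 1 (Cd74) was above 0 in enough cells to be tested, through anti-PD1-treated TECs alone. Cd74, the invariant chain of class II molecules, was above 0 in 0 of 29 losartan-treated TECs, which allows a share of up to 10.3%, and in 20 of 78 anti-PD1-treated TECs (25.6%, interval 16.4 to 36.8%), whose median position was −1.13. H2-Ab1, a class II chain, was above 0 in 2 of 29 losartan-treated TECs, up to 1.45 TP100K, and in 13 of 78 anti-PD1-treated TECs, up to 274.5 TP100K, with a median position of −1.15. The 11 microglia and macrophage markers of the same cells summed to a median of 0 and a mean of 0.0800 TP100K in losartan-treated TECs, and to a median of 0 and a mean of 5.75 TP100K in anti-PD1-treated TECs, with C1qa, P2ry12 and Tyrobp at 0 in every cell, and their part in this was not tested beyond these values. Of the leukocyte adhesion genes, Icam1 was above 0 in 4 of 29 losartan-treated and 16 of 78 anti-PD1-treated TECs, and Vcam1 had a ratio of −0.46. Of 18 Wnt genes tested, 2 were at least 2-fold lower (9.26% of all genes) and none higher (6.94%), with a list median of −0.08. These 2 were the pathway targets Notum (−1.80) and Apcdd1 (−1.59).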
